A study of Mus musculus with 6 samples.

Results

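Genes of the red cell membrane and the protein skeleton beneath it were examined in mouse spleen, namely Slc4a1, Sptb, Ank1, Epb41, Epb42, Rhag, Rhd and Kel. These 8 genes were taken by symbol from a table of 40808 gene IDs, by a rule that names them and uses no measured value, though earlier results of these data were known, and all 8 passed the filter on low counts. The table holds 6 libraries of mRNA 3′ ends, 3 from mice labelled as not on Dox (replicates 4, 5 and 6) and 3 from mice labelled as on Dox (replicates 10, 11 and 12). Per the labels, both groups were mice with a bone marrow transplant and the RNA came from leukaemia cells of the spleen. Beyond the word Dox, the labels give no dose, duration, transgene, promoter, strain, sex or age for either group, and they do not say whether each library came from a separate mouse. If libraries shared a source, the p-values measure only the spread between these libraries.

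The red cell has no internal cytoskeleton that spans the cell. It keeps its shape through a mesh of spectrin tetramers laid under the membrane, which is tied to the lipid layer at a pair of protein complexes. In the ankyrin complex, ankyrin-1 (Ank1) links beta-spectrin (Sptb) to the anion exchanger band 3 (Slc4a1), with protein 4.2 (Epb42) and the Rh proteins (Rhd and Rhag) beside it. In the junctional complex, protein 4.1 (Epb41) fastens spectrin to short actin filaments. The Kell protein (Kel) is an endopeptidase on the cell surface that is bound to the membrane protein XK. Mouse spleen, unlike human adult spleen, makes red cells throughout life, so that its RNA normally holds erythroblast and reticulocyte transcripts.

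Promoter windows are shown for Rhag, Rhd and Kel, because these 3 surface protein genes behaved differently with Dox: Rhd was lower, Kel was higher and Rhag was not called. Each window runs from 250 bases before to 50 bases after a RefSeq transcription start (assembly GRCm38.p6) and is written 5′ to 3′ on the strand of the gene. Capitals mark the letters AGATAA, which GATA factors can bind, the letters TGATAA, which they can bind too, and CCACCC, which Kruppel-like factors can bind. Both strands were searched, so a capital run may be the reverse complement of these letters; no matches overlapped in these windows. The Rhag window is chr17:40810899-40811198 on the plus strand, the Rhd window is chr4:134864286-134864585 on the plus strand, and the Kel window is chr6:41704276-41704575 on the minus strand.
Rhag: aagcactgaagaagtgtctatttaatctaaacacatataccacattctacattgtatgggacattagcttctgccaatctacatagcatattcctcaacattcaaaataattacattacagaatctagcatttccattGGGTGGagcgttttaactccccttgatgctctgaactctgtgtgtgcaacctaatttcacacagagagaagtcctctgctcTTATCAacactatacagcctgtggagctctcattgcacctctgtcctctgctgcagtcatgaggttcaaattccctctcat
Rhd: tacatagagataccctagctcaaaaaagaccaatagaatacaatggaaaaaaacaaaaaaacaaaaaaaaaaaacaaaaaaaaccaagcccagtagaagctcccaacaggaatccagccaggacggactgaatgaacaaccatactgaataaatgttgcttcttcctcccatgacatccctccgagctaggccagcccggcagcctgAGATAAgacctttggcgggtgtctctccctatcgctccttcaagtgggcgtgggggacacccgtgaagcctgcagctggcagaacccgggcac
Kel: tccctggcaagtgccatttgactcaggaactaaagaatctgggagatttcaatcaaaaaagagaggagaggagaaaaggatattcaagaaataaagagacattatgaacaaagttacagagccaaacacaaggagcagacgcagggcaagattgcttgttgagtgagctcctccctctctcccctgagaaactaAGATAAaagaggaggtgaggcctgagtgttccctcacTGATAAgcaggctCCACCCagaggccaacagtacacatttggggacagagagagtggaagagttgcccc

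The Rhd window held AGATAA at bases -43 to -38 from the start. In Kel the letters AGATAA stood at -56 to -51, TGATAA at -19 to -14 and CCACCC at -6 to -1. Rhag held the reverse form of TGATAA at -31 to -26 and of CCACCC at -112 to -107. Windows were found for 6 of the 8 members, with 3 windows for Epb41 and none for Slc4a1 and Ank1. Of these 8 windows, 4 held a GATA match (Epb42, Rhd, Kel and Rhag) and 3 a CCACCC match (Kel, Sptb and Rhag). Among 32851 windows of the same length, 18.6% held a GATA match and 31.5% a CCACCC match. A match describes letters only.

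Total counts ran from 5541486 to 8725767 per library, which puts the limit of 3 counts at 0.34 to 0.54 CPM (counts scaled to the library total); this limit covers counting error only. The common biological coefficient of variation was 0.19 without Dox and 0.515 with Dox. The 18 T cell markers summed to 3023 to 3173 CPM without Dox and 341 to 466 CPM with Dox, with 16 of 18 called lower; none was at 0 throughout a group. The 12 B cell markers summed to 42.0 to 46.2 and 2386 to 2721 CPM, with 12 of 12 called higher. The 18 myeloid markers summed to 553 to 690 and 2676 to 2772 CPM. Of these, 17 were tested, with 7 called higher, 3 lower, and Ly6g at 0 in every library without Dox. The 14 markers of megakaryocytes, cells that share a progenitor with red cells, summed to 80.8 to 94.9 and 471 to 582 CPM, with 11 of 13 tested called higher. The 12 stromal and endothelial markers summed to 360 to 412 and 490 to 685 CPM. Of these, 10 were tested, with 3 called higher and 2 lower, and Lum was at 0 in every library without Dox. The shares called over all tested genes were 23.6% higher and 22.1% lower. The 4 Y-linked genes counted had 545 to 801 counts without Dox and 0 with Dox, while Xist had 193 to 324 and 3347 to 5669 counts. Libraries without Dox thus held both Y-linked and Xist counts. As the mice had a transplant, Dox cannot be told apart from the sex of the cells or their origin in donor or host. The part of these shifts in the results below was not tested. In such bulk RNA, fewer cells of a type and less RNA per cell cannot be told apart.

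Against this background, the membrane genes did not move as a block. With Dox, Epb41, Kel, Sptb and Slc4a1 were higher and Rhd was lower, while Ank1, Rhag and Epb42 did not pass the test. The count was 5 of 8 members called at an adjusted p-value under 0.05, 4 higher and 1 lower (edgeR quasi-likelihood test). Over all 14110 genes tested, 45.6% were called, 23.6% higher and 22.1% lower, so a large share of called genes was usual in this comparison. The median log2 fold change of the 8 members was 0.54, against 0.07 over all tested genes. The groups did not overlap in 6 of 8 members, against 59.6% of all tested genes. All levels below are normalized CPM (counts scaled by library size and TMM factors) and all fold changes are Dox against no Dox.

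**Figure D1:**
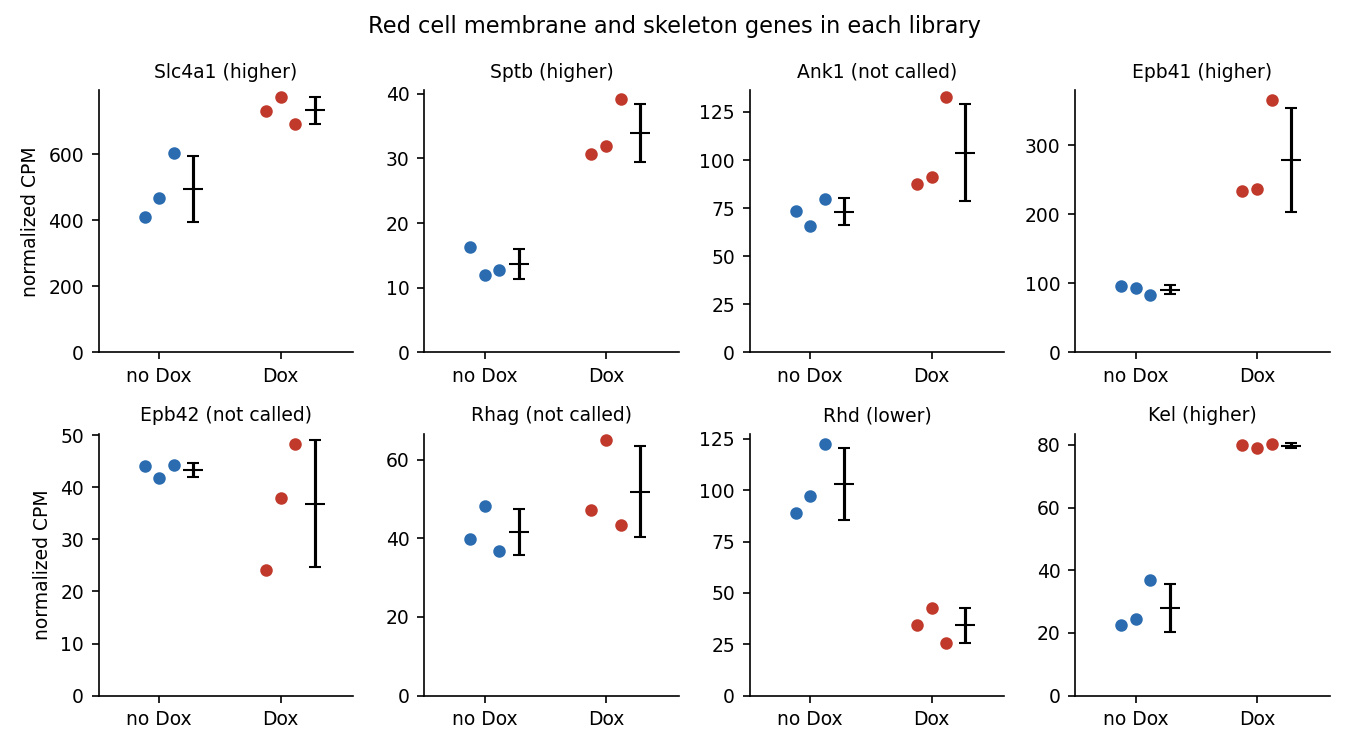
Normalized CPM (vertical axis, from 0) of each member in the 3 libraries without Dox (blue) and the 3 with Dox (red); the bar beside each group is the mean with its SD, and each title gives the call at an adjusted p-value under 0.05. The points of Rhd lie lower with Dox, those of Epb41, Kel, Sptb and Slc4a1 lie higher, and those of Epb42 and Rhag overlap.

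Among the proteins of the ankyrin complex, band 3 is the anchor. Slc4a1 (Entrez 20533, chr11:102348820-102365281 in GRCm38) encodes it, the most abundant membrane protein of the red cell, which exchanges chloride for bicarbonate. Its level was 410, 467 and 604 CPM in replicates 4, 5 and 6 without Dox and 732, 774 and 693 CPM in replicates 10, 11 and 12 with Dox. Every Dox library lay above every library without Dox, although replicate 6 came close to the lowest of them. Slc4a1 rose 1.48-fold (log2 fold change 0.57, SE 0.17; adjusted p = 0.0195). The call was lost when replicate 4 (adjusted p = 0.120) or 5 (adjusted p = 0.125) without Dox, or replicate 10 (adjusted p = 0.0523) or 11 (adjusted p = 0.0636) with Dox, was left out.

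Ankyrin-1, the adaptor between band 3 and spectrin, is encoded by Ank1 (Entrez 11733, chr8:22974836-23150501). Ank1 was at 73.3, 65.9 and 79.8 CPM without Dox, against 87.4, 91.2 and 133 CPM with Dox. The groups did not overlap, and Dox replicate 12 stood above the other Dox libraries. Its log2 fold change, 0.51 with an SE of 0.21, did not pass (adjusted p = 0.0711). It was called higher in 4 alternatives: upper-quartile factors (adjusted p = 0.0361), library size only (adjusted p = 0.00841), at least 10 counts in every library (adjusted p = 0.0239) and beta-globin scaling (adjusted p = 0.00347). Without Dox replicate 12 it was 0.27. The non-coding RNA gene Gm15816, on the opposite strand, overlaps it over 10915 bases and had 1 to 4 counts without Dox and 37 to 74 with Dox.

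Protein 4.2, encoded by Epb42 (Entrez 13828, chr2:121017891-121036877), belongs to the transglutaminase family by sequence but has no such activity, and it stabilises band 3 on ankyrin. Epb42 was at 44.0, 41.7 and 44.2 CPM without Dox, against 24.1, 38.0 and 48.4 CPM with Dox. The libraries without Dox lay close together, whereas those with Dox spread on either side of them. The log2 fold change of -0.24 ± 0.26 (SE) did not pass (adjusted p = 0.4999). Epb42 was called lower with alpha-globin scaling (-1.22, adjusted p = 0.0042), where the median of all tested genes was -0.91.

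The Rh proteins belong to a family that includes membrane channels for small gases. Rhag (Entrez 19743, chr17:40811099-40844094) encodes the glycoprotein that carries the others to the cell surface, and Rhd (Entrez 19746, chr4:134864536-134896172) encodes the single mouse protein related to the human Rh blood group antigens. Rhag was at 39.8, 48.2 and 36.8 CPM without Dox, against 47.1, 65.0 and 43.4 CPM with Dox. The groups overlapped, and the log2 fold change of 0.32 ± 0.23 (SE) did not pass (adjusted p = 0.283). Rhag was called higher with library size only (adjusted p = 0.0452) and beta-globin scaling (adjusted p = 0.00372), and lower with alpha-globin scaling (adjusted p = 0.0325). Rhd was at 88.8, 97.3 and 123 CPM without Dox, against 34.4, 42.8 and 25.8 CPM with Dox. Every Dox library lay far below every library without Dox. Rhd was 2.99-fold lower with Dox (log2 fold change -1.58, SE 0.23; adjusted p = 0.000439) and was called in each alternative that was run.

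Beta-spectrin, the erythroid chain that carries the ankyrin and protein 4.1 binding sites, is encoded by Sptb (Entrez 20741, chr12:76580488-76710547). Sptb had few counts, 59 to 109 per library without Dox and 226 to 311 with Dox. In CPM this was 16.3, 11.96 and 12.7 in the libraries without Dox, against 30.8, 32.0 and 39.1 in the Dox libraries, with no overlap. Sptb rose 2.48-fold (log2 fold change 1.31, SE 0.26; adjusted p = 0.00268). Its end overlaps that of Plekhg3, on the opposite strand, by 2 bases; Plekhg3 had 64 to 119 counts without Dox and 81 to 130 with Dox.

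Epb41 (Entrez 269587, chr4:131923413-132075346) encodes protein 4.1, which is also made in many other cell types from the same gene. Epb41 was at 95.5, 92.8 and 83.4 CPM without Dox, against 234, 236 and 365 CPM with Dox. The libraries without Dox were close together, and Dox replicate 12 stood above the other Dox libraries. Epb41 rose 3.07-fold, a log2 fold change of 1.62 ± 0.21 (SE; adjusted p = 0.000179), and the value without Dox replicate 12 was 1.36. The gene has 3 RefSeq promoter windows, and 3′ end counts do not tell which start or which internal exons were used. The non-coding RNA gene Gm36157 overlaps Epb41 over 3904 bases and had 17 to 25 counts without Dox and 145 to 284 with Dox. The strand setting of the counting is not given, so reads of Epb41 and Gm36157, or of Ank1 and Gm15816, may not have been told apart.

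Kel (Entrez 23925, chr6:41686329-41704334), the Kell endopeptidase, was at 22.7, 24.3 and 36.8 CPM without Dox, against 80.0, 78.9 and 80.3 CPM with Dox. The Dox libraries were nearly equal, at 79.7 ± 0.70 CPM (SD, n = 3), and replicate 6 was the highest of the libraries without Dox. Kel rose 2.85-fold, a log2 fold change of 1.51 ± 0.23 (SE; adjusted p = 0.000477). Xk, which encodes the protein that Kell is bound to, had a log2 fold change of 0.03 ± 0.37 (SE; adjusted p = 0.954).

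The other genes of the red cell membrane were taken from a list of 26, of which 25 were tested and Ackr1, the Duffy antigen gene, had 0 counts in every library (under the floor of 3 counts). Of the 25, 12 were called higher and 3 lower with Dox, and their median log2 fold change was 0.30. The shares over all tested genes were 23.6% higher and 22.1% lower, and their median was 0.07. The adducin genes Add1 and Add2 and the dematin gene Dmtn, whose products sit at the junctional complex, were called higher with log2 fold changes of 0.69, 1.26 and 1.20. Tmod1 (tropomodulin) and Mpp1 (p55), also of that complex, were not called, at -0.21 and -0.00. Gypc, a glycophorin gene whose product binds protein 4.1, was called lower, at -0.86 (SE 0.21; adjusted p = 0.00772), a call that was lost with library size only (-0.55, adjusted p = 0.0509).

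The largest fall in that list was that of Slc29a1, a nucleoside transporter, at 120, 109 and 161 CPM without Dox, against 11.6, 24.5 and 18.3 CPM with Dox (log2 fold change -2.84 ± 0.29 (SE), adjusted p = 4.6e-05). At the other end stood Cd55, which protects cells from complement, Add3, an adducin found in many tissues, Piezo1, a stretch-activated channel, and Atp2b4, a calcium pump. Cd55 went from 6.18 ± 3.9 to 75.9 ± 6.1 CPM (SD, n = 3 each) and Add3 from 15.3 ± 7.5 to 165 ± 17 CPM. These genes are also expressed by white cells. Piezo1 was at 17.1 and 14.6 CPM in Dox replicates 10 and 11 but at 65.8 CPM in replicate 12, and its log2 fold change was 3.23 with all libraries and 2.18 without that replicate. Atp2b4 went from 94.6 ± 13 to 401 ± 22 CPM (SD, n = 3 each), and Aqp1 and Bsg, among 10 genes not called, had log2 fold changes of -0.31 and -0.30.

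**Figure D2:**
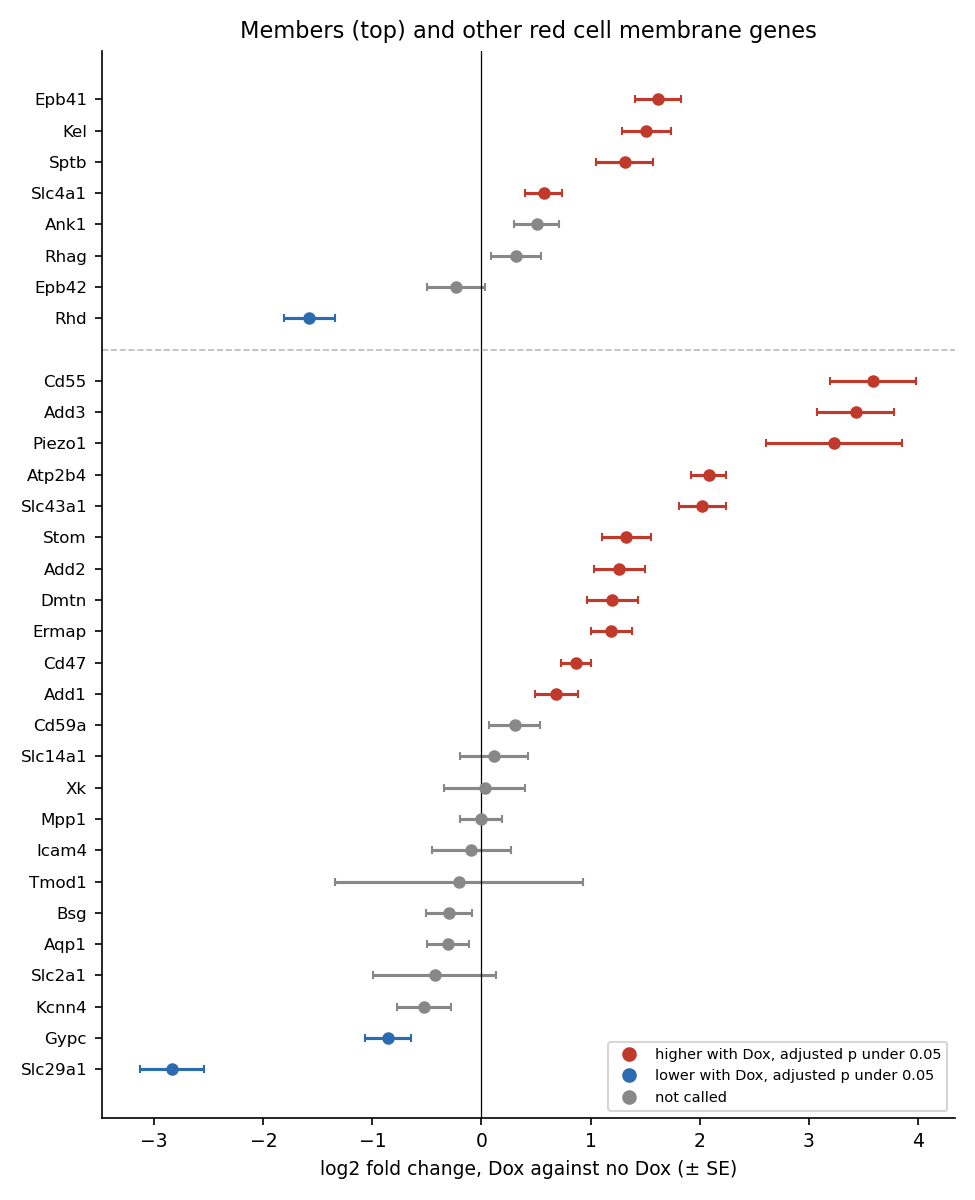
Log2 fold change with its SE (horizontal axis, Dox against no Dox) of the 8 members above the dashed line and 23 of the 25 tested genes of the other membrane list below it, in red where called higher, blue where called lower and grey where not called. The members range from -1.58 (Rhd) to 1.62 (Epb41) and the other genes from -2.84 (Slc29a1) to 3.59 (Cd55).

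Most members have relatives that are widely expressed outside red cells. A list of 24 such paralogues had 15 tested genes, with 7 called higher, 0 lower and a median log2 fold change of 1.11. Over all tested genes, 23.6% were called higher and 22.1% lower, with a median of 0.07. By limma-voom and by DESeq2 the number called lower was also 0, and at an unadjusted p-value under 0.05 it was 0; without Dox replicate 11 it was 1, Slc4a2. Sptbn1, the common beta-spectrin, went from 154 ± 6.6 to 343 ± 69 CPM (SD over 3 libraries) and was called higher (log2 fold change 1.16, SE 0.18; adjusted p = 0.00055). With the trend of fold change with transcript length removed it was not called (0.36, adjusted p = 0.123). Sptan1, the common alpha-spectrin, did not pass (log2 fold change 0.46, adjusted p = 0.0775), but it was called higher with upper-quartile factors (0.55, adjusted p = 0.0369), library size only (0.76, adjusted p = 0.0101) and at least 10 counts in every library (0.57, adjusted p = 0.0286). Epb41l2 and Epb41l3, relatives of protein 4.1, had log2 fold changes of 0.58 and 2.02, and Ank3, a neuronal and epithelial ankyrin, one of 2.52, all called higher. The call of Epb41l2 was lost in 5 of 6 fits that left out 1 library, each of them but the fit without Dox replicate 12 (highest adjusted p = 0.184). Slc4a2, the common anion exchanger, did not pass (log2 fold change -0.67, adjusted p = 0.484), but it was called lower without Dox replicate 11 (-2.02, adjusted p = 0.0273), and fits that left out 1 library ranged from -2.02 to -0.27. The ammonia channel genes Rhbg and Rhcg of kidney and liver had 0 counts in all 6 libraries.

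Ratios of counts between genes of one library do not depend on the scaling between libraries. For 8 pairs chosen with earlier results known, the ratio was computed in each library and the groups were compared with an exact two-sided permutation test, whose smallest p with 3 against 3 is 0.1 (0.114 after Benjamini-Hochberg adjustment over the 8 pairs). Of these, 6 are described. Rhd counts per Rhag count were 2.23, 2.02 and 3.33 in the libraries without Dox, against 0.731, 0.658 and 0.596 in the Dox libraries. All 3 libraries without Dox were above 1 and all 3 Dox libraries below 1 (exact p = 0.1).

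Kel counts per Xk count were 1.88, 1.19 and 3.74 in the libraries without Dox, against 4.45, 6.04 and 6.62 in the Dox libraries (exact p = 0.1). Per Slc4a1 count, Epb42 went from 0.0900 ± 0.017 to 0.0506 ± 0.019 and Epb41 from 0.190 ± 0.048 to 0.384 ± 0.124 (SD, n = 3 each; exact permutation p = 0.1 for each). The groups did not overlap in either ratio. Ank1 per Slc4a1 was 0.151 ± 0.025 without Dox and 0.143 ± 0.042 with it (SDs over 3 libraries; exact permutation p = 0.7), and here the groups overlapped. As a share of the summed counts of the 8 members, Rhd held 11.2% to 12.01% without Dox and 1.81% to 3.15% with Dox, whereas Slc4a1 held 51.9% to 59.2% and 48.5% to 57.7%.

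**Figure D3:**
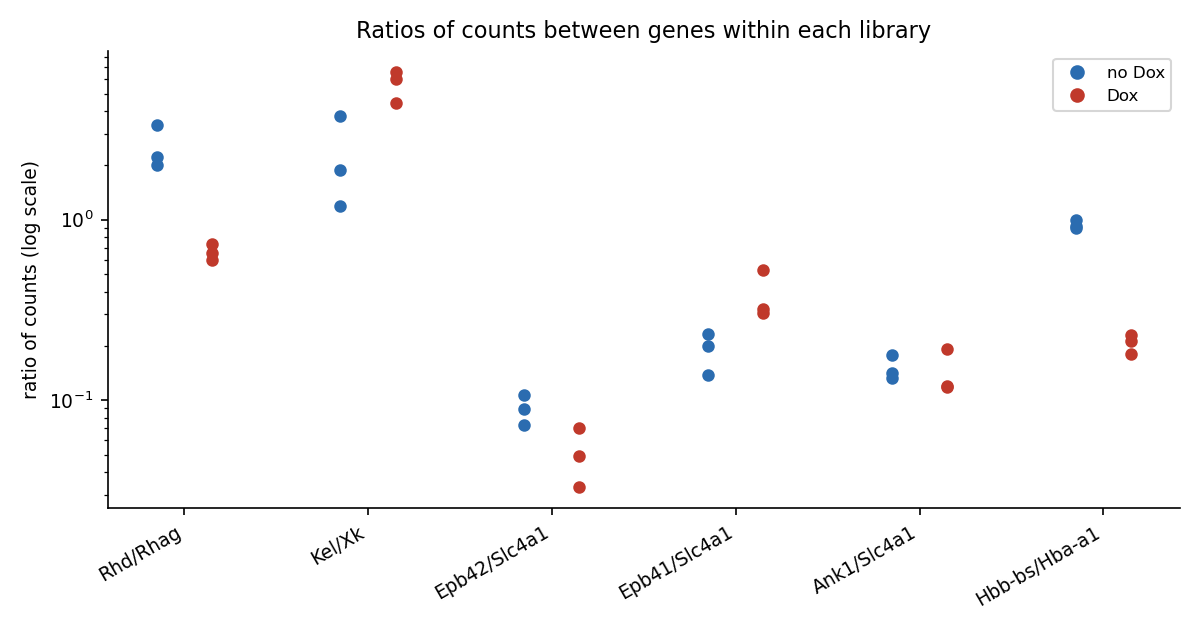
Ratio of counts (log axis) for 6 gene pairs, 1 point per library, blue without Dox and red with Dox. Of the pairs shown, the groups overlap for Ank1/Slc4a1 alone, and the largest separation is that of Hbb-bs/Hba-a1, from 0.902 to 0.995 without Dox to 0.180 to 0.230 with Dox.

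Another measure of red cell RNA in the same libraries is haemoglobin. Haemoglobin genes took 8.61% to 9.04% of counts without Dox and 14.1% to 15.9% with Dox, but the alpha and beta chains moved apart. Of 5 haemoglobin genes tested, 2 were called higher (Hba-a1 and Hba-a2) and 2 lower (Hbb-bs and Hbq1b). Hbq1b had a log2 fold change of -1.29 (adjusted p = 0.0187). Hbb-bt, also a beta-globin gene, was not called (-0.24, adjusted p = 0.361), and its groups overlapped. For comparison, 23.6% of all tested genes were called higher and 22.1% lower. Hba-a1 was at 30648 ± 1286 CPM in libraries without Dox and 59079 ± 918 CPM in Dox libraries, while Hbb-bs was at 28820 ± 1919 and 12251 ± 1677 CPM (SDs over 3 libraries). Hba-a1 was called higher (edgeR adjusted p = 2.97e-05) and Hbb-bs lower (edgeR adjusted p = 4.44e-05). With the trend of fold change with transcript length removed, Hba-a1 was at 2.08 on the log2 scale and Hbb-bs at -0.0872 (adjusted p = 0.599), no longer called. Hba-a1 and Hba-a2 are near-identical copies, as are parts of Hbb-bs and Hbb-bt, so the counts of each are uncertain.

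Per 1000 haemoglobin counts, Slc4a1 had 5.02 ± 1.3 counts without Dox and 5.31 ± 0.14 with Dox (SDs over 3 libraries). The groups overlapped (exact permutation p = 0.8, two-sided). Ank1 (0.739 ± 0.11 and 0.758 ± 0.22; exact permutation p = 1) and Rhag (0.419 ± 0.049 and 0.374 ± 0.074; exact permutation p = 0.5) also overlapped. Rhd per 1000 haemoglobin counts was 0.860, 0.958 and 1.32 in the libraries without Dox, against 0.245, 0.302 and 0.196 in the Dox libraries. Epb42 was at 0.426, 0.411 and 0.476 without Dox and at 0.171, 0.268 and 0.367 with Dox, so on this scale its groups did not overlap (exact permutation p = 0.1). Epb41, Kel and Sptb kept higher values with Dox in all 3 libraries, for example 0.925, 0.914 and 0.898 against 1.66, 1.67 and 2.77 for Epb41.

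Scaling to one globin chain shifted all genes together: the median log2 fold change over tested genes was 0.07 as reported, -0.91 with alpha-globin and 0.98 with beta-globin as the reference. Signs under these references are therefore relative to the chain used. Scaled to alpha-globin counts, Slc4a1, Ank1 and Rhag had negative log2 fold changes (-0.42, -0.48 and -0.66), and scaled to beta-globin counts they had positive ones (1.45, 1.46 and 1.20). Rhd stayed negative in both, at -2.57 and -0.73, and Epb41, Kel and Sptb stayed positive in both. Scaled to alpha-globin, Epb41 was still called (0.64, adjusted p = 0.0262), while Kel (0.52, adjusted p = 0.106) and Sptb (0.33, adjusted p = 0.330) were not.

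**Figure D4:**
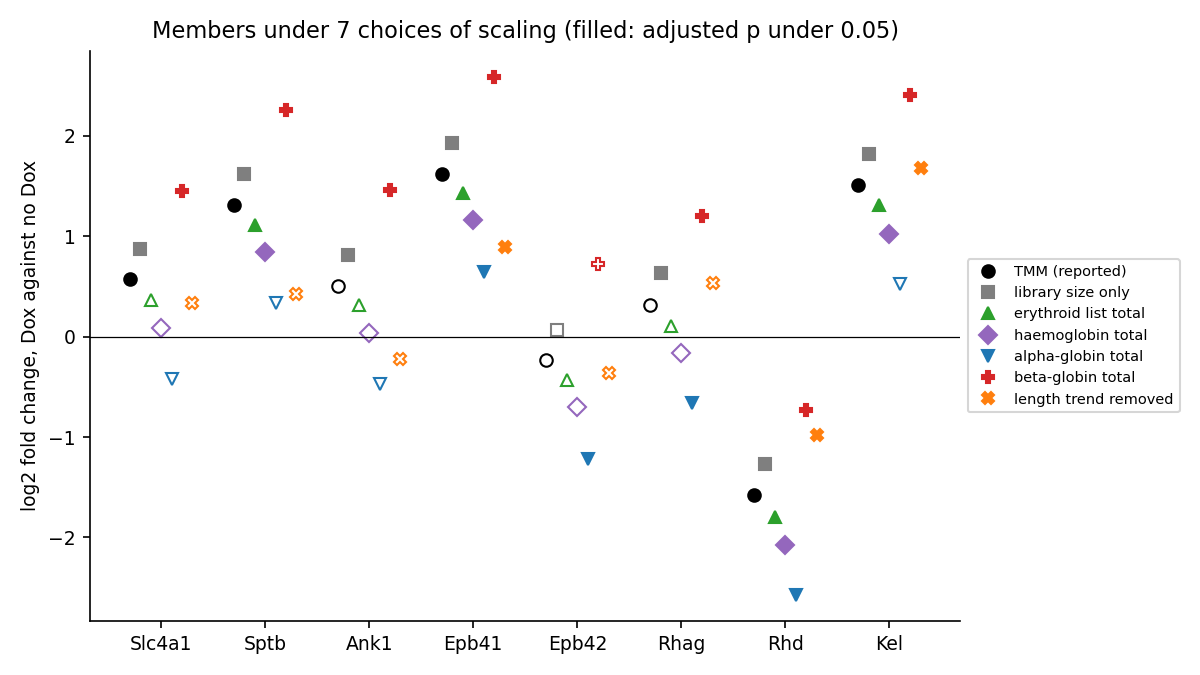
Log2 fold change (vertical axis) of each member under 7 choices of scaling, filled where the adjusted p-value was under 0.05 and open where it was not; the median of all tested genes lies at -0.91 with alpha-globin and 0.98 with beta-globin. Rhd is below 0 and filled in all 7, Epb41 is above 0 and filled in all 7, and Slc4a1, Ank1, Epb42 and Rhag lie on either side of 0.

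Of 26 erythroid genes found of a list of 28, 13 were called higher and 4 lower, with a median log2 fold change of 0.42, beside 23.6% higher, 22.1% lower and a median of 0.07 over all tested genes. Gata1 and Klf1, transcription factors that drive red cell genes, were at 20.7 ± 2.2 and 62.0 ± 6.6 CPM without Dox and 22.8 ± 7.7 and 78.6 ± 8.5 CPM in Dox libraries (SDs over 3 libraries), and neither passed (adjusted p = 0.754 and 0.155). Klf1 was called higher with library size only (0.65, adjusted p = 0.0161) and after correction for transcript length (0.93, adjusted p = 0.00265). Alas2, the first enzyme of haem synthesis in red cells, rose from 177 ± 14 to 380 ± 35 CPM (SDs over 3 libraries; adjusted p = 0.000295). Tfrc, the transferrin receptor, was at 236 ± 17 and 318 ± 12 CPM (SDs over 3 libraries; adjusted p = 0.0327), a call that was lost in 5 of 6 fits that left out 1 library, each of them but the fit without Dox replicate 12 (highest adjusted p = 0.203). Trim58, a ubiquitin ligase of late erythroblasts, had 0 to 5 counts without Dox and 71 to 96 with Dox. Car1, a carbonic anhydrase of red cells, went from 144 ± 12 to 36.4 ± 6.9 CPM (SD, n = 3 each; log2 fold change -1.98, adjusted p = 4e-05). With the summed counts of this list as the reference, Epb41, Kel, Sptb and Rhd were still called in their directions, and Slc4a1 was not (log2 fold change 0.36, adjusted p = 0.105).

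Fold changes over all genes went with transcript length. Across 11992 tested genes with a length in the GENCODE M21 annotation, Pearson's r of log2 fold change and log2 length was 0.23, a description across genes of these 6 libraries. The median log2 fold change was -0.78 for genes whose longest transcript is under 2000 bases and 0.76 for those over 8000 bases. Rhd is the shortest member (1514 bases) and Sptb the longest (10394 bases), with Epb41 at 8302, Ank1 at 8366 and Kel at 2530 bases. With the trend removed, Rhd (-0.98, adjusted p = 0.0071), Epb41 (0.90, adjusted p = 0.0059) and Kel (1.68, adjusted p = 0.000302) were still called. Sptb was not (0.42, adjusted p = 0.218), nor was Slc4a1 (0.34, adjusted p = 0.133). Atp2b4 (1.11 against 2.08), Ank3 (1.67 against 2.52), Piezo1 (2.52 against 3.23) and Add3 (3.23 against 3.43) had smaller log2 fold changes but were still called. Cd55 was slightly larger and still called (3.64 against 3.59).

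**Figure D5:**
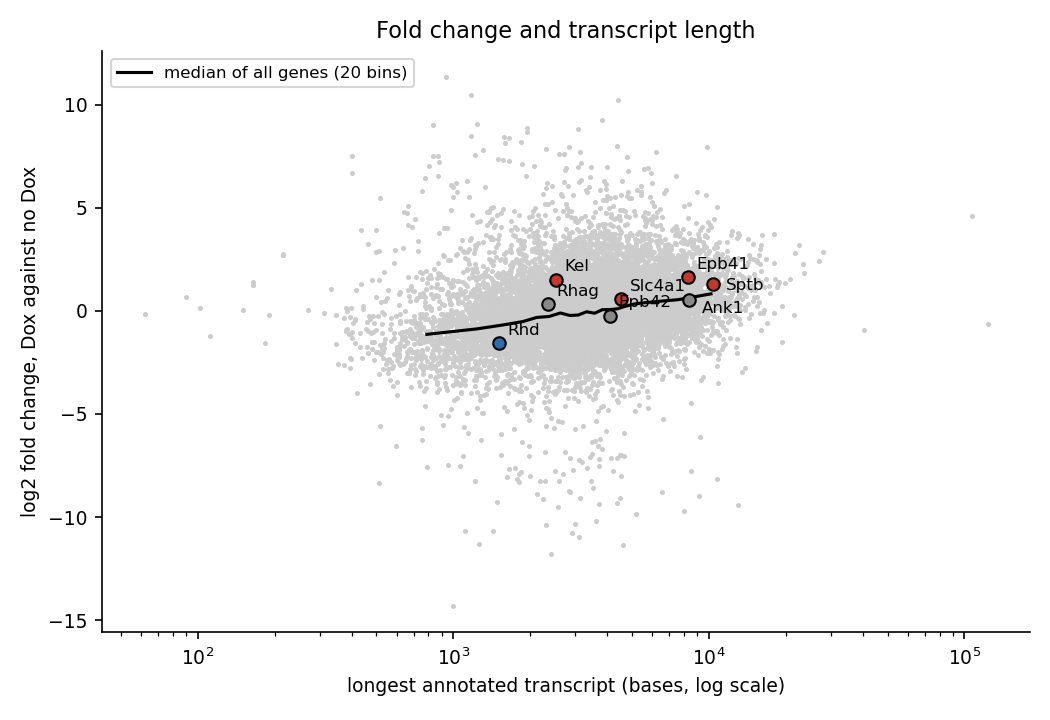
Log2 fold change (vertical axis) against the longest annotated transcript (horizontal log axis, bases) for 11992 genes in grey, with the median in 20 length bins as a line and the 8 members as outlined points coloured by their call (red higher, blue lower, grey not called). Kel lies above the line and Rhd below it, while Ank1 lies near it.

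The genes most like a member over the 6 libraries were sought among 6993 genes of at least median expression, by the root mean square difference of centred log2 CPM. The nearest to Slc4a1 were Tug1 (0.09), Epb41l2 (0.09), Prpf18 (0.10), Arhgef6 (0.11) and Slc25a24 (0.11). Nearest to Epb41 were Baz1a (0.09), Phf20l1 (0.09), Clk1 (0.10), Birc2 (0.10) and Eea1 (0.10). Log2 fold changes of these genes ran from 0.45 to 0.72 near Slc4a1 and from 1.51 to 1.79 near Epb41. With 2 groups of 3 libraries, a small distance goes with a similar fold change. Whether the genes share cells or control was not tested.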

How the data were processed

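RNA was measured in 6 spleen libraries, 3 per group, made with a kit that reads mRNA 3′ ends, per the labels' protocols. The authors deposited raw counts per Entrez gene ID, unnormalized and unpooled. STAR, featureCounts and the build GRCm38 are named in the submitters' processing notes; versions, strand setting, annotation and the treatment of shared reads are not given in the sources used here. All 6 columns matched a sample by title, and 0 were left over. Symbols, positions and promoter windows came from RefSeq GRCm38.p6 (39374 of 40808 IDs matched; 4 list symbols were not found), and lengths from GENCODE M21.

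Genes were filtered with filterByExpr (minimum count 10, total 15), scaled with TMM factors and tested with the edgeR 4.0.16 quasi-likelihood test in R 4.3.3 over all 14110 genes, with Benjamini-Hochberg adjustment and a threshold of 0.05. SEs were derived as log2 fold change over the square root of F. Alternatives used other factors and filters, DESeq2 1.42.0, limma 3.58.1 (voom, with and without group weights), other reference amounts, a loess length correction, and fits without each library. Replicates of the groups share no number.

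Members and lists were chosen with earlier results of these data known. The text names all members; up to 4 called genes in each direction of the other membrane list; fixed relatives, globins and erythroid genes, with the largest rise and fall of the erythroid list; and the 5 genes nearest to Slc4a1 and to Epb41. Dmtn, Add1, Add2, Tmod1, Xk, Ackr1, Mpp1, Aqp1, Bsg, Hba-a2, Hbb-bt, Hbq1b, Gm36157, Gm15816, Plekhg3 and the 8 ratio pairs were added after values were seen. Some genes that this rule or these pairs name are not reported here.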

Additional observations from a re-analysis of the deposited data

How the results depend on the processing

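No paired analysis was possible because replicates are numbered 4 to 6 in one group and 10 to 12 in the other. The alternatives with alpha- or beta-globin as reference and with the length trend removed were chosen after seeing the data. Rhd and Epb41 kept their direction and call in every alternative run. Library size alone moved the median over all tested genes from 0.07 to 0.38, alpha-globin scaling moved it to -0.91 and beta-globin scaling to 0.98, so changes under these are read against that shift. Where calls were lost, gained or reversed the cause was not tested, and low counts (59 to 109 for Sptb without Dox) limit precision.

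Of all 14110 genes tested, 6057 were called with the length trend removed and 6616 with library size only. Other references gave 7539 (alpha-globin), 7159 (beta-globin), 6619 (all haemoglobin) and 6399 (erythroid list), against 6438 as reported. With the length trend removed, 3 members were called (2 higher), 4 paralogues were called (4 higher), and Slc4a1 (0.34), Sptb (0.42), Ank1 (-0.22) and Sptan1 (-0.24) lost their call or direction. Scaled to alpha-globin, 1 member was called higher and 3 lower, with Slc4a1 at -0.42, Sptb 0.33, Ank1 -0.48, Epb42 -1.22, Rhag -0.66 and Kel 0.52; scaled to beta-globin, Ank1 was 1.46, Epb42 0.72 and Rhag 1.20. Scaled to all haemoglobin, Slc4a1 was 0.0804, Rhag -0.16, Sptan1 -0.0261, Gata1 -0.34, Klf1 -0.14 and Tfrc -0.0473, and 6 other membrane genes were called lower. Scaled to the erythroid list, Slc4a1 was 0.36, Gata1 -0.0604, and 5 other membrane genes were called lower. With library size only, 7 members were called (6 higher), as with beta-globin scaling; Ank1 was 0.81 and Rhag 0.63, both called, Epb42 was 0.0679, and 1 other membrane gene was called lower. Upper-quartile factors gave Ank1 0.60, and at least 10 counts in every library gave 0.63. Without a low-count filter Slc4a1 was 0.44 (adjusted p = 0.0923) and Gata1 -0.0061. Tfrc (0.30, adjusted p = 0.317) and Epb41l2 (0.45, adjusted p = 0.145) also lost their call there, as they did with the erythroid list as reference (0.23 and 0.37) and with the length trend removed (0.12 and 0.39). Epb41l2 lost it scaled to haemoglobin (0.0928).

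Leaving out each library in turn gave 4 to 5 members called (3 to 4 higher, 1 lower), 14 to 16 other membrane genes (11 to 12 higher, 3 to 4 lower) and 6 to 8 paralogues (6 to 7 higher, 0 to 1 lower). The number called over all genes also moved between these fits. It ran from 4794 of 15676 tested, without replicate 5 of no Dox, to 7025 of 14800, without Dox replicate 12. Log2 fold changes ran from 0.41 to 0.65 for Slc4a1, 1.15 to 1.42 for Sptb, 0.27 to 0.59 for Ank1, 1.36 to 1.70 for Epb41, -0.50 to -0.03 for Epb42, 0.10 to 0.42 for Rhag, -1.79 to -1.43 for Rhd and 1.34 to 1.67 for Kel; Gata1 was -0.16 without Dox replicate 12.

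The log2 ratio of members to haemoglobin counts was 0.11 for Slc4a1, 0.84 for Sptb, 0.01 for Ank1, 1.11 for Epb41, -0.77 for Epb42, -0.17 for Rhag, -2.08 for Rhd and 1.07 for Kel. Against alpha-globin counts these were -0.39, 0.34, -0.49, 0.61, -1.27, -0.68, -2.58 and 0.57, and against beta-globin counts 1.48, 2.21, 1.38, 2.48, 0.60, 1.19, -0.71 and 2.44. Against the erythroid list, Slc4a1 was 0.38, Sptb 1.11 and Rhag 0.10.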

Other observations

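Genes of late red cell maturation, a list of 14 that shares 5 genes with the erythroid list, had 10 called higher and 1 lower with Dox, with a median log2 fold change of 0.83. Of all tested genes, 23.6% were called higher and 22.1% lower, and the median was 0.07. Ube2l6, a ubiquitin-conjugating enzyme, had a log2 fold change of 1.77, Tent5c, a poly(A) polymerase, one of 1.40, and Xpo7, a nuclear export receptor, one of 1.02. Isg20, an exonuclease, was the gene called lower, at -1.11. They were picked out with their values known. The summed level of the list was 1301 to 1470 CPM (of raw totals) without Dox and 2227 to 3233 CPM with Dox.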
